A study of Mus musculus with 6 samples.

Results

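The 10 core genes of the circadian clock were followed in RNA from mouse liver tumors. They are the activators Arntl, Clock and Npas2 and the repressors Per1, Per2, Per3, Cry1, Cry2, Nr1d1 and Nr1d2. They were chosen by symbol, and 10 of 10 were found among the 30236 genes listed and among the 22677 genes tested. Tumors came from male C57BL/6 littermates, 3 WT and 3 Top1mt -/- (KO), with 1 library a tumor. TOP1MT is the mitochondrial type IB topoisomerase, and the KO line was kept by heterozygous breeding. Mice of both genotypes received the liver carcinogen diethylnitrosamine (DEN) on day 14 of life. From week 8 they received the hepatotoxin carbon tetrachloride (CCl4), 2 injections a week over 14 weeks, and tumors were taken at 22 weeks. No tumor-free liver and no untreated mouse is part of these libraries. The time of day of collection and the feeding state are not given in the sources used here, and the hour of collection and the genotype cannot be told apart here. Whether each tumor came from a different mouse is not given either, so every interval and p-value measures only the spread between these libraries. The question put to the values was which arm of the clock, activators or repressors, was high in each tumor.

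Mammalian cells keep daily time with a transcriptional loop. ARNTL (also named BMAL1) pairs with CLOCK or with its paralog NPAS2 and activates the Per, Cry and Nr1d genes through short DNA words called E-boxes. PER and CRY proteins then return to the nucleus and inhibit the pair, while the REV-ERB receptors made by Nr1d1 and Nr1d2 repress Arntl, Clock and Npas2 through RORE words. In the liver of mice the activator transcripts and the Per and Nr1d transcripts therefore peak at opposite parts of the day, and Cry1, which carries RORE words as well, comes late.

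Start-site sequences in RefSeq (GRCm38.p6), 250 bases before to 50 after each start, were matched by symbol for 9 of the 10 members, in 13 windows among 32851 for all genes. Per2 was not matched. Both strands were searched for the E-box CACGTG, the E'-box CACGTT, the D-box TTANGTAA that DBP, TEF and HLF bind, the cAMP response word TGACGTCA and 2 short forms of the RORE, TAGGTCA and TGGGTCA. The words do not overlap each other in these windows. Stretches of 5 members that hold such a word are shown, whatever the gene's values, because the loop's own factors can bind such words. Binding at these copies was not measured. The stretches are printed 5′ to 3′ on the gene's strand with the words in capitals. The first 4 run from 250 to 11 bases before the start site. The last is a short piece of the first exon of Arntl around its RORE.
Per1, chr11:69098699-69098938, plus strand, E-box: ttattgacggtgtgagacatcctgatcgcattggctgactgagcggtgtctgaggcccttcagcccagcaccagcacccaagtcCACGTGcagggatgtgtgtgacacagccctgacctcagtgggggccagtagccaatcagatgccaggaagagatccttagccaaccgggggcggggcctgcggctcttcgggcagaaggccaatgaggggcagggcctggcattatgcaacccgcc
Cry1, chr10:85185065-85185304, minus strand, E'-box then E-box: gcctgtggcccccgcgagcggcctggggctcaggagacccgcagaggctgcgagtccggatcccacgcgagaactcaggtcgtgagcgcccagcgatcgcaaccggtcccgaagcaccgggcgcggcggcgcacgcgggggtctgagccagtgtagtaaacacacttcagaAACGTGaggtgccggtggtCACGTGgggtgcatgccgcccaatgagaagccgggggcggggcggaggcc
Nr1d1, chr11:98775388-98775627, minus strand, E'-box: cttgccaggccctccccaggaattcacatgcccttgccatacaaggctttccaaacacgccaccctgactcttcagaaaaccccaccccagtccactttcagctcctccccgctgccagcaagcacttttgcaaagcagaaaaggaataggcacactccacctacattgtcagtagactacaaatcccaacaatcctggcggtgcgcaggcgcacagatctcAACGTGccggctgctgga
Per3, chr4:151044676-151044915, minus strand, 2 D-boxes: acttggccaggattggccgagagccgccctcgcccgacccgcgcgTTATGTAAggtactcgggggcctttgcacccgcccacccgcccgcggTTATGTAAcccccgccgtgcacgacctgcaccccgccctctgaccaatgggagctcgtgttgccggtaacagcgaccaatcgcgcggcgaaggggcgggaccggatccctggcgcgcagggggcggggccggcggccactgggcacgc
Arntl, chr7:113207530-113207558, plus strand, RORE: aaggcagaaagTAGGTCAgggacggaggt
The E-box began at position -166 from the start site in Per1 and at -60 in Cry1. The E'-box stood in the reverse direction, AACGTG, and began at -79 in Cry1, at -28 in Nr1d1 and at -166 in Cry2. The TTATGTAA copies of Per3 began at -205 and -158, and the RORE of Arntl began at position 31, inside the transcript. Of all windows, 7.15% held the E-box, 4.68% the E'-box, 2.32% the D-box, 2.61% the TAGGTCA form, 3.98% the TGGGTCA form and 1.79% the cAMP response word. No window of a member held either of the last 2 words. In the windows of Clock, Npas2 and Nr1d2 none of the 6 words was found, which says only that these letters are not in those windows. By GENCODE M21 (GRCm38) the Per1 stretch lies in an intron of a longer Per1 transcript.

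The labels were checked on Top1mt before the clock genes were read. Values are listed from replicate 1 to replicate 3 throughout. On the log2 scale the WT libraries held Top1mt at 7.71, 5.99 and 8.01 and the KO libraries at 5.58, 6.41 and 6.32. The library labelled WT replicate 2 lay below 2 of the 3 libraries labelled KO, so every direction given here rests on the labels. Hepatocyte markers were at the top of the scale in all 6 libraries, with Alb between 20.26 and 21.12. The authors' log2 values carry no read totals, which leaves their depth unknown, and whether the unnamed transform draws weak genes together was not tested.

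The activator transcripts stood higher in the libraries labelled KO, and most of all in KO replicate 3. Arntl, the activator without which the clock stops, had log2 values of 5.86, 4.75 and 5.29 in WT and 6.90, 5.88 and 9.42 in KO. The groups did not overlap, although WT replicate 1 and KO replicate 2 nearly met, and KO replicate 3 stood 2.52 above the next library, a 5.73-fold step. The WT mean of 5.30 ± 0.55 (SD, n = 3) stood against a KO mean of 7.40 ± 1.82 (SD, n = 3), a difference of 2.10 on the log2 scale with a standard error of 0.81 (95% interval 0.22 to 3.97). Clock, which encodes the usual partner of ARNTL, had 9.78, 9.64 and 9.92 in WT and 10.42, 10.24 and 10.71 in KO. Here all 3 KO libraries lay close together above all 3 WT libraries, with a difference of 0.68 and a standard error of 0.16 (95% interval 0.31 to 1.04). Npas2, which can stand in for Clock, had 2.79, 3.83 and 1.94 in WT and 4.82, 2.88 and 7.02 in KO. The groups overlapped, since KO replicate 2 lay below WT replicate 2, and KO replicate 3 was again the highest by 2.20. Its values are low on this scale, and its difference of 2.05 had a standard error of 1.01.

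**Figure D1:**
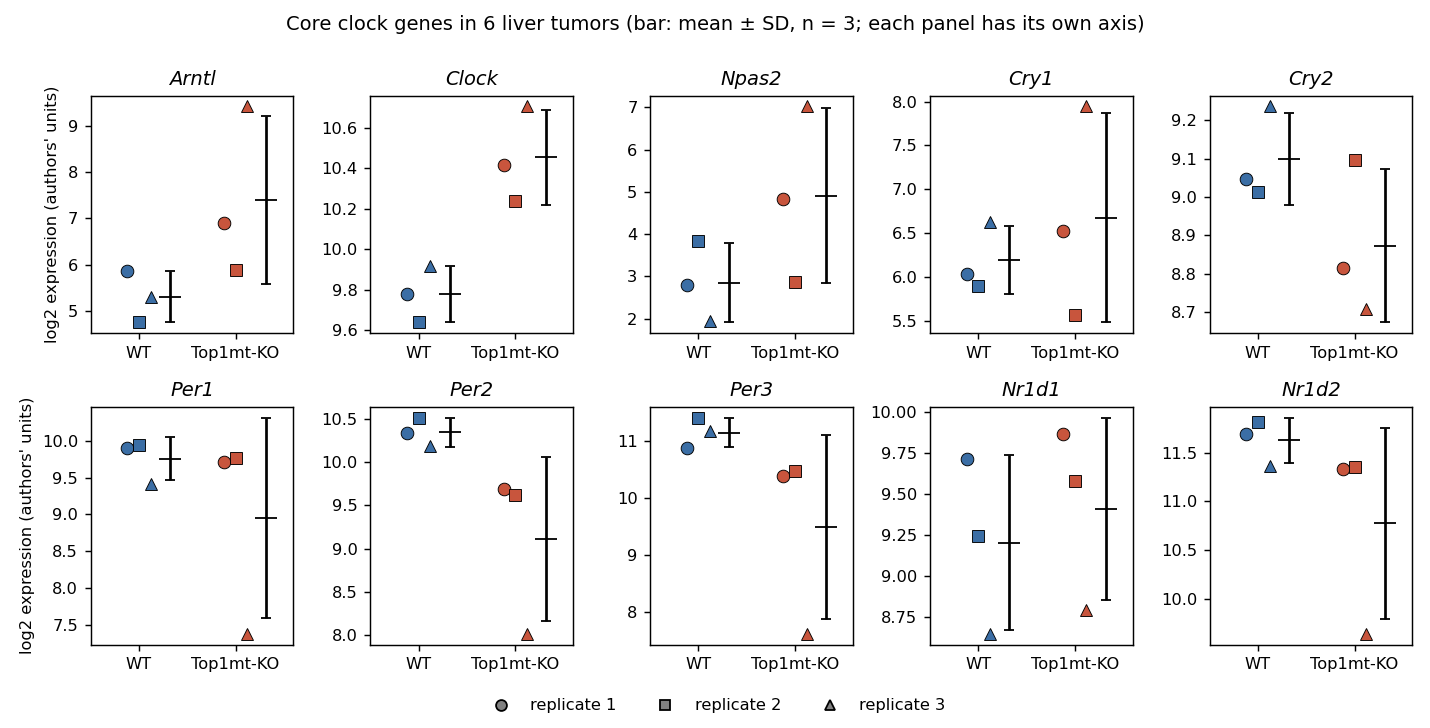
Log2 expression of the 10 core clock genes in the 3 WT (blue) and 3 Top1mt-KO (red) tumors, 1 point a library with the replicate number as its shape and a bar for the mean ± SD (n = 3); each panel has its own vertical axis. KO replicate 3 (red triangle) is the highest library for Arntl (9.42), Clock, Npas2 and Cry1 and the lowest for Cry2, all 3 Per genes and Nr1d2.

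The Per transcripts ran the other way. Per2, a repressor with a central part in the loop, had 10.33, 10.52 and 10.19 in WT and 9.69, 9.62 and 8.01 in KO, and the groups did not overlap. Its difference was -1.24 with a standard error of 0.41 (95% interval -2.19 to -0.29). Per3, a paralog on which the loop depends less, had 10.88, 11.40 and 11.17 in WT and 10.39, 10.47 and 7.62 in KO. All KO values were again the lower ones, and the difference was -1.66 with a standard error of 0.69 (95% interval -3.25 to -0.08). Per1, which hormones such as glucocorticoids also induce, had 9.90, 9.94 and 9.42 in WT and 9.71, 9.76 and 7.38 in KO. Only KO replicate 3 stood apart for Per1 (-2.04 from the nearest library), while KO replicates 1 and 2 lay among the WT values. Its difference was -0.80 with a standard error of 0.58 (95% interval -2.15 to 0.55).

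The REV-ERB genes split. Nr1d2, which encodes REV-ERB beta, had 11.69, 11.81 and 11.36 in WT and 11.33, 11.35 and 9.64 in KO. The groups did not overlap, but KO replicates 1 and 2 lay just under WT replicate 3, and the difference of -0.85 had a standard error of 0.43. Nr1d1, which encodes REV-ERB alpha, had 9.72, 9.25 and 8.65 in WT and 9.86, 9.58 and 8.79 in KO. It was the 1 member for which KO replicate 3 was neither the highest nor the lowest library, and its difference of 0.21 (standard error 0.34) was -0.07 without WT replicate 3 and -0.02 without KO replicate 1. Of its 3077 annotated exon bases, 263 are shared with Thra, a gene on the opposite strand. The libraries were stranded, but whether the counting used the strand is not given in the sources used here. Thra had 8.08, 7.86 and 7.89 in WT and 8.17, 7.94 and 8.46 in KO, and its part in the values of Nr1d1 was not tested. Cry1, a strong repressor of the ARNTL pair, had 6.04, 5.90 and 6.63 in WT and 6.52, 5.57 and 7.94 in KO. It thus stood with the activators in KO replicate 3, and its difference of 0.49 was -0.15 without that library. Cry2, its paralog, varied least of the 10, with 9.05, 9.01 and 9.24 in WT and 8.82, 9.10 and 8.71 in KO and a difference of -0.22 (standard error 0.15). It shares 295 of 6320 exon bases with D930015M05Rik on the opposite strand, with the same limit.

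Read as counts, 2 of the 10 members (Arntl and Clock) were higher and 3 (Per2, Per3 and Nr1d2) lower in KO without overlap, where 3.95% of all genes tested were higher and 4.33% lower in this way (8.28% in either direction). The members were chosen with these values known, so the counts are a description. An adjusted p under 0.05 was reached by 0 of the 10 members and by 0% of all genes tested (limma with Benjamini-Hochberg adjustment over all genes, smallest adjusted p among the members 0.968 for Clock). An unadjusted p under 0.05 by limma was found for 4 members, Arntl, Clock, Per2 and Per3, and for 4.34% of all genes tested. By role, the median difference was 2.05 for the 3 activators, -1.24 for the 3 Per genes, -0.32 for the 2 Nr1d genes and 0.13 for the 2 Cry genes, beside -0.015 for all genes tested. In each of the last 2 pairs 1 gene was higher and 1 lower.

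**Figure D2:**
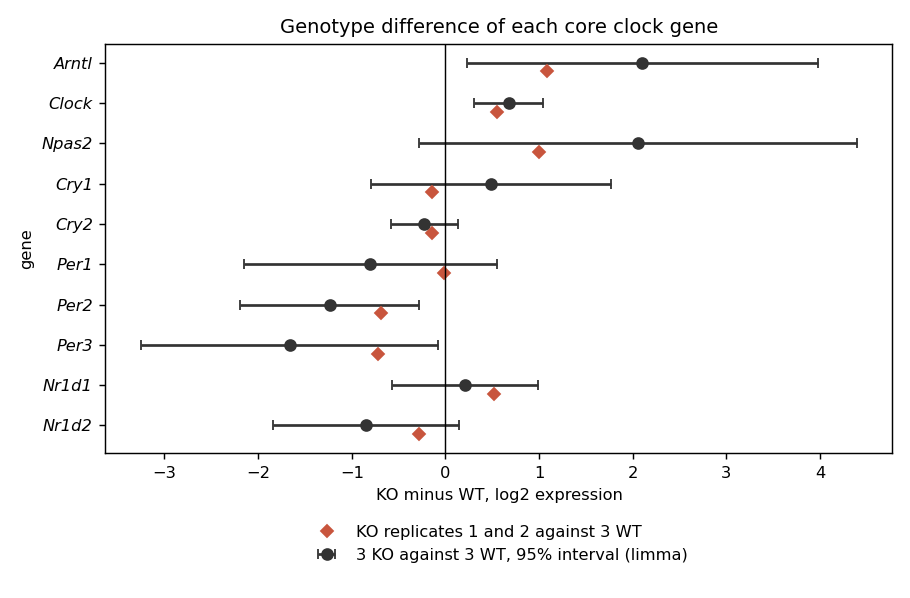
Difference between genotypes (KO minus WT, log2) for each core clock gene; black points give the fit over all 6 libraries with its 95% interval, red diamonds the mean of KO replicates 1 and 2 minus the WT mean. Without KO replicate 3 the differences move toward 0 for 8 members, as for Arntl (2.10 to 1.09) and Per1 (-0.80 to -0.01), and that of Cry1 crosses it, while that of Nr1d1 moves away from it (0.21 to 0.52).

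KO replicate 3 was the highest or lowest of the 6 libraries for 9 of 10 members, 4 times highest and 5 times lowest. Over all genes tested it held an extreme in 38.5% of genes, the largest share of any library, and the others held one in 29.9% to 35.9%. WT replicate 2 held an extreme in 6 members and WT replicate 1 in 0. Against the WT mean, KO replicate 3 had 17.4-fold more Arntl and 18.0-fold more Npas2, on the authors' scale, and Per3 was 11.6-fold, Per1 5.18-fold, Per2 5.03-fold and Nr1d2 3.94-fold higher in the WT mean than in it. KO replicates 1 and 2 lay in between for some members only. Their mean exceeded WT by 1.09 for Arntl and 0.55 for Clock and lay 0.69 below it for Per2 and 0.72 for Per3, while for Per1 it was -0.01 and for Nr1d2 -0.29. Without KO replicate 3 the same 5 members still did not overlap, beside 7.32% of all genes higher and 8.54% lower under that smaller comparison. Without WT replicate 2, Npas2 was added to the 5, beside 8.77% higher and 9.56% lower. Without WT replicate 3, Per1 was added (7.98% and 9.41%), and without KO replicate 2, Npas2 and Cry2 were, which made 3 higher and 4 lower (8.16% and 8.74%). After each library was centred on its median, Nr1d2 overlapped, which left 2 higher and 2 lower, beside 5.33% and 3.37%.

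The range over the 6 libraries set the members apart from one another. Npas2 spanned 5.08 log2 units, Arntl 4.67 and Per3 3.79, and ranges at least as wide were seen in 0.216%, 0.370% and 0.935% of all genes tested. Per1 (2.56), Per2, Cry1 (2.37) and Nr1d2 (2.17) came next, with 5.45% to 10.4% of genes at least as wide. Nr1d1 (1.22), Clock (1.07) and Cry2 (0.53) lay within the range of ordinary genes, as 39.9%, 47.6% and 78.9% of genes varied as much. Among the 5 members without overlap between the genotypes, Clock had the narrowest range and Arntl the widest.

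To give each tumor 1 value for the balance of the arms, the mean centred log2 value of Per1, Per2, Per3, Nr1d1 and Nr1d2 was taken from that of Arntl, Clock and Npas2. A difference of levels at an hour that is not given does not measure phase apart from amplitude. This index came to -1.16, -1.31 and -1.24 for the WT libraries, which lie close together. Values are centred on the mean of the 6 libraries, so 0 is no biological midpoint, and KO replicate 3 moves the WT values below it. For the KO libraries it came to 0.38, -0.63 and 3.96. The 3 KO tumors were spread over a wide span and all lay above the WT tumors. KO replicate 3 had activators at 2.27 and repressors at -1.69. KO replicate 1 had activators at 0.60 and repressors at 0.22, and KO replicate 2 had them at -0.45 and 0.17. The WT libraries had activators from -1.07 to -0.64 and repressors from 0.18 to 0.60, so on the repressor side WT replicate 3 (0.18) was level with KO replicates 1 and 2. The WT mean of -1.24 ± 0.08 (SD, n = 3) and the KO mean of 1.24 ± 2.41 (SD, n = 3) gave a difference of 2.48 that was 1.12 without KO replicate 3. No test is given for a score over chosen members.

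**Figure D3:**
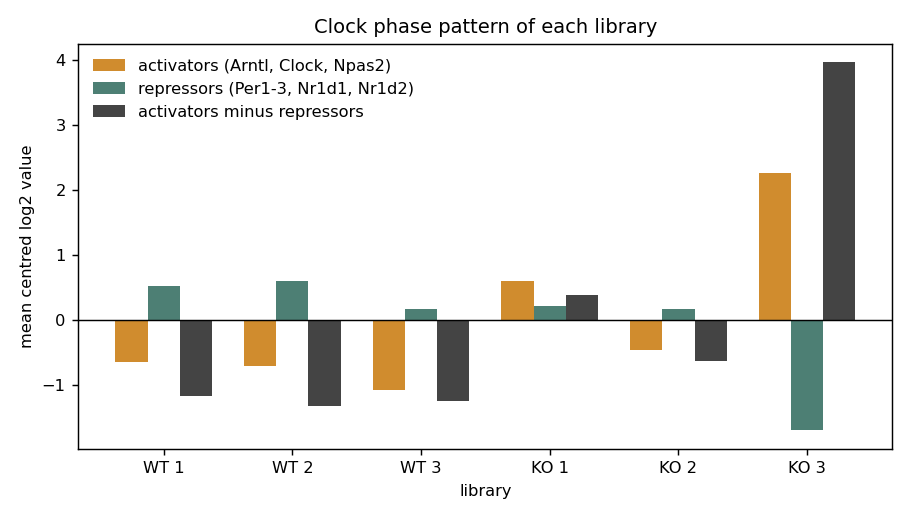
Mean centred log2 value of the 3 activators (orange), of the 5 repressors Per1, Per2, Per3, Nr1d1 and Nr1d2 (green) and their difference (grey) in each library, from an axis at 0. The 3 WT tumors have an index between -1.31 and -1.16, and KO replicate 3 reaches 3.96.

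Variation among tumors of 1 genotype does not use the contrast between genotypes, so the opposition of the arms was also read there, as deviations from the genotype's own mean. Per3 and Arntl deviated to opposite sides in 6 of 6 libraries, as 4.17% of all genes tested did, although in WT replicate 3 both lay next to their means (0.02 and -0.01), and Per2 and Arntl in 5 of 6, as in 11.3% of genes. Per1, Nr1d1, Nr1d2 and Cry2 were opposite to Arntl in 4 of 6 libraries, which 21.5% of genes were. These shares are of genes opposite in exactly that number of libraries. The shares opposite in at least 4 or at least 5 are larger. The KO tumors gave 3 of 3 for each Per and Nr1d gene, with KO replicate 3 on one side and the other two on the other, as 16.6% of all genes tested did. Deviations within a genotype sum to 0, so these 3 signs amount to 1 contrast, that of KO replicate 3. The WT tumors gave 3 of 3 for Per3, as 19.6% of all genes tested did, 2 of 3 for Per2 and 1 of 3 for Per1, Nr1d1 and Nr1d2. Arntl lay next to its mean in WT replicate 3 (-0.01), so the sign of any gene against it there carries little weight. Per1, Nr1d1 and Nr1d2 lay on the side of Arntl in WT replicate 1 and opposite to it in WT replicate 2. The WT tumors thus do not decide the opposition for these genes. On the activator side Clock deviated with Arntl in 5 of 6 libraries, as exactly 11.3% of genes did by being opposite in 1. In WT replicate 1 Clock lay next to its mean (0.0006). Npas2 and Cry1 deviated with Arntl in 4 of 6, as did the 22.0% of genes opposite in 2. Within WT the largest deviation was 0.56 for Arntl and -0.27 for Per3, and Npas2 reached 0.98 in replicate 2 and -0.91 in replicate 3.

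The same pattern was looked for in the whole table, by the root mean square difference between centred log2 values over the 6 libraries. Among 11657 genes outside the members with a range of at least 1, Enho was the most like Arntl, at 0.29 log2 units. Enho, which encodes the secreted peptide adropin, had 6.39, 4.90 and 5.21 in WT and 7.60, 6.56 and 9.59 in KO. Peg3 (0.56), Nfil3 (0.61), B3galt1 (0.62) and Dhrs9 (0.66) followed. Nfil3 encodes E4BP4, a repressor that competes with DBP at D-boxes, and it is held down by REV-ERB in the loop. The closest mirror image of Arntl was Dbp (0.34), followed by Tef (0.60), Cnnm1 (0.61), Cyp2a4 (0.66) and Gm10069 (0.66). Cyp2a4 has a near-identical neighbour, Cyp2a5, so its value is uncertain. With members included in the ranking of 11665 genes, Per3 was the 2nd closest mirror image of Arntl, Per2 the 20th, Per1 the 28th and Nr1d2 the 41st, and Nr1d1 was only the 3837th. Npas2 ranked 26th and Cry1 75th among genes like Arntl, and Clock, with its small range, 597th. The 5 genes closest to Nr1d1 were Lrch4, Gm17048, Gm24059, Gm22328 and Tro (0.12 to 0.13), of which only Tro had values above 4. None of them is a clock gene of the lists used here. KO replicate 3 holds the largest deviation of Arntl and weighs most in these distances.

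**Figure D4:**
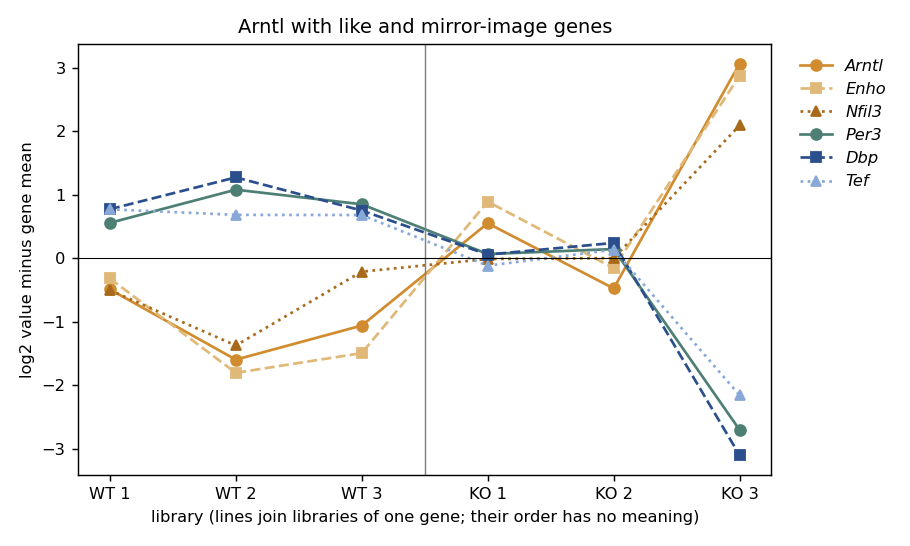
Centred log2 values of Arntl, of Enho and Nfil3, which are like it, and of Per3, Dbp and Tef, which mirror it, in the 6 libraries; lines join the libraries of 1 gene and carry no order. In KO replicate 3 the first 3 genes stand above 2 and the last 3 below -2.

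The other transcription factors of the loop numbered 11, of which 0 passed an adjusted p of 0.05 in either direction by limma. In KO 3 were higher and 8 lower, with a median difference of -0.63 against -0.015 for all genes tested. The 3 with the largest differences were Ciart, Dbp and Tef. Ciart, which encodes a repressor of the ARNTL pair, had 8.06, 8.07 and 7.38 in WT and 5.64, 6.42 and 4.81 in KO. The groups did not overlap, with WT replicate 3 at 7.38 and KO replicate 2 at 6.42 on either side of a gap wider than for any member, and the difference of -2.21 (standard error 0.41, 95% interval -3.17 to -1.26, limma's adjusted p = 0.938) was -1.81 without KO replicate 3. Dbp, a D-box activator driven by E-boxes, had 10.51, 11.01 and 10.49 in WT and 9.79, 9.97 and 6.63 in KO (difference -1.87, -0.78 without KO replicate 3). Tef, its relative, had 11.97, 11.89 and 11.88 in WT and 11.09, 11.34 and 9.04 in KO (difference -1.43, -0.70 without KO replicate 3). Neither overlapped between the groups. Bhlhe41, a repressor that competes at E-boxes, was added to the lower ones without WT replicate 2, where 9.56% of all genes tested were lower. Nfil3 was higher in KO without overlap (difference 1.39). With all 6 libraries, 1 of the 11 factors was thus higher and 3 lower without overlap, beside 3.95% and 4.33% of all genes tested. Rora, which encodes the activator that opposes REV-ERB at ROREs, had a difference of -0.03 (95% interval -0.55 to 0.49), and Rorb was at the bottom of the scale, between -0.80 and -0.07.

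**Figure D5:**
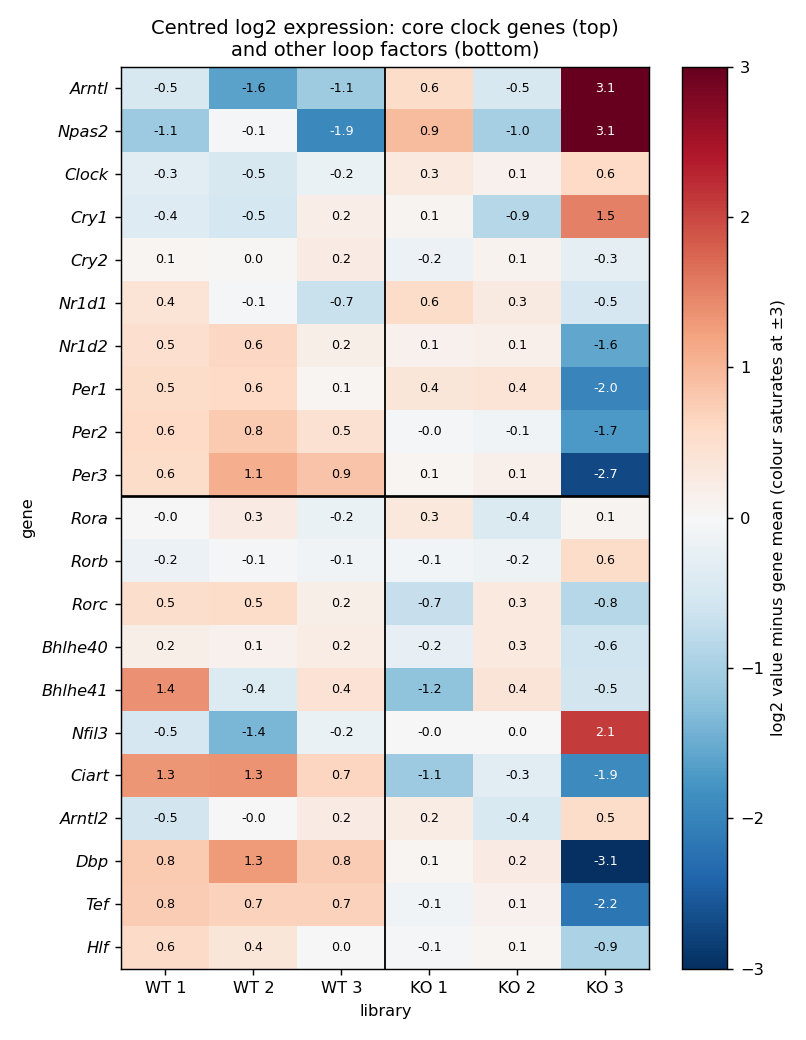
Log2 value minus the gene's mean over the 6 libraries for the 10 core clock genes (above the line) and 11 other factors of the loop (below it), red above and blue below the mean, with the value in each cell. The darkest cells are those of KO replicate 3 for Arntl (3.1), Npas2 (3.1), Dbp and Per3 (-2.7), and Rora stays within 0.5 of its mean.

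Genes whose products act on the clock proteins had smaller differences between genotypes. Among 10 genes, 9 for kinases and ubiquitin ligase parts, which set the stability of PER and CRY, and Timeless, which encodes neither, differences ran from -0.20 (Fbxl21) to 0.15 (Btrc), with Timeless at 0.11. Csnk1d, which encodes a PER kinase, had 0.05. Among 8 corepressor and coactivator genes they ran from -0.11 (Wdr5) to 0.19 (Kat2b), with Ncor1, the corepressor that REV-ERB recruits, at 0.08. In both lists 0 genes passed an adjusted p of 0.05 by limma and 0 were without overlap, beside 8.28% of all genes tested. In lists this short, 0 cannot be told from that share. Without WT replicate 2, Btrc and Fbxw11 of the first list and Ncor1 and Kat2b of the second were higher without overlap. So were 8.77% of all genes tested. Over the 6 libraries Fbxl21 and Timeless each spanned 1.15, wider than Clock (1.07).

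Other cell types and hormone targets were read beside the clock genes, and their part in these values was not tested. In bulk tumors fewer cells of a type and less RNA per cell cannot be told apart. Of 7 bile duct markers, 5 were lower in KO, with a median difference of -1.19. Krt19 (-2.68) and Epcam (-1.19) did not overlap, and Krt7 (-2.20) and Tspan8 (-1.91) did. The summed level of the list, log2 of the summed linear values, was at 11.92 to 12.95 in WT and 11.73 to 12.64 in KO, but it is mostly that of Spp1 (11.32 to 12.56). The summed hepatocyte markers were at 20.86 to 21.57 in WT and 21.06 to 21.70 in KO, macrophage markers at 12.32 to 13.41 and 12.22 to 12.93, stellate and fibroblast markers at 13.12 to 14.64 and 12.21 to 14.26, and endothelial markers at 12.69 to 12.93 and 12.80 to 13.11. Lymphocyte markers were weak, at 7.02 to 7.19 and 6.78 to 7.80. Other single markers without overlap were Ttr, Pecam1 and Cdh5, higher, and Cd3e, lower, beside 8.28% of all genes tested. Cd3e is weak (1.14 to 3.27), and 4 of 8 lymphocyte markers were higher and 4 lower. Without WT replicate 2, Alb was added to the higher ones and Krt7, Csf1r and Lrat to the lower ones (8.77% and 9.56% of all genes). Without WT replicate 3, Marco, Vsig4 and Cd8a were higher (7.98%). Without KO replicate 3, Tat, Clec4f, Cd79b and Clec4g were lower (8.54%). Other markers were added without each remaining library. KO replicate 3 was the highest library for the lymphocyte and endothelial sums and within the range of the others for the rest. Of 8 glucocorticoid-responsive genes, 5 were higher and 3 lower, and 0 passed by limma. Without overlap were 0 of them, beside 8.28% of all genes tested, which so short a list cannot be told from. In KO replicate 3, the library lowest in Per1, Tsc22d3 (9.42) and Errfi1 (13.04) were at their lowest of the 6 libraries and Sgk1 (10.48), Mt1 (12.30) and Tat (14.34) at their highest.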

How the data were processed

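RNA-seq libraries of 3 WT and 3 Top1mt-KO tumors were grouped by the titles of the samples. Values deposited by the authors are on a log2 scale, 1 row a gene symbol, from -2.24 to 22.0, in a transform the sources used here do not name. The paper's methods give trimming with Trimmomatic, alignment with BWA to Mm 8, featureCounts on uniquely mapped reads and DESeq2. The submitters' processing notes also name Trimmomatic 0.36, but STAR 2.5.1 and GRCm38 in place of BWA and Mm 8. Which aligner and genome build made the values could not be settled. The table has 3 unnamed columns, with a few leftover cells that look like ratios of the authors' own comparison, and these were not used. Counts and depth cannot be recovered.

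The KO against WT difference was fitted by limma 3.58.1 under R 4.3.3 (lmFit, eBayes with trend, Benjamini-Hochberg over 22677 genes whose mean lay above the lowest 25%, threshold 0.05), a procedure tested on simulated data. The members and gene lists were chosen with earlier results of these data known. Genes named are the members, Top1mt, the largest differences of each clock list and the 5 genes nearest to Arntl, its mirror image and Nr1d1. Rora, Rorb, Nfil3, Timeless, Csnk1d, Ncor1, Bhlhe41, Fbxw11, the glucocorticoid targets and the cell type markers singled out were named after their values were seen. Alternatives were limma without trend, quantile normalization, median centring, other filters, the replicate block, other index members and each library left out.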

Additional observations from a re-analysis of the deposited data

How the results depend on the processing

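Of 120 recalculated member differences, 117 kept their direction and 0 passed an adjusted p of 0.05 by limma (smallest 0.596, for Clock). Those that reversed were Cry1 without KO replicate 3 (-0.15) and Nr1d1 without WT replicate 3 (-0.070) and without KO replicate 1 (-0.02). Limma without trend, the other filters and the replicate block leave each difference unchanged by construction. Only the remaining settings could turn a direction, so the count of kept directions includes some fixed in advance. With one library left out the differences ran from 1.09 to 2.86 for Arntl, 0.996 to 3.07 for Npas2, 0.55 to 0.78 for Clock, -1.53 to -0.69 for Per2, -2.15 to -0.72 for Per3, -1.21 to -0.01 for Per1, -1.14 to -0.29 for Nr1d2, -0.15 to 1.04 for Cry1, -0.07 to 0.52 for Nr1d1 and -0.34 to -0.14 for Cry2. The lower end in size for the first 7 was without KO replicate 3. The index difference ran from 1.12 to 3.41 and was 2.56 with quantile normalization, 2.19 with Cry1 and Cry2 among the repressors and 2.95 with Arntl and Npas2 as the only activators. Members without overlap numbered 5 to 7 with one library left out (7 without KO replicate 2, beside 8.16% of all genes higher and 8.74% lower) and 4 after median centring (5.33% and 3.37%), where Nr1d2 overlapped.

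Over all genes tested, 0 passed by limma with 985 at an unadjusted p under 0.05, 4 passed with no filter on low values, and 0 to 1 with one library left out, the 1 without KO replicate 1. The causes were not tested. The replicate block gave 0 genes and 0 members. Over all genes tested, same-numbered libraries deviated with correlations of -0.12, -0.08 and 0.05. With the replicate block the standard error fell for most members, as for Nr1d1 (0.34 to 0.15) and Per1 (0.58 to 0.37). It rose for Npas2 (1.01 to 1.07) and Cry2 (0.15 to 0.18). Whether libraries of the same number share anything was not tested.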
